A study of Arabidopsis thaliana with 30 samples.

Results

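The nuclear genome of *Arabidopsis thaliana* encodes the light-harvesting proteins of both photosystems and many of their smaller subunits, and 43 such genes were followed here. They are 9 genes of the main antenna of photosystem II (LHCB1 to LHCB3), 6 of its minor antenna (LHCB4 to LHCB7) and 6 of the antenna of photosystem I (LHCA1 to LHCA6). The rest are 12 genes of other photosystem I proteins (PSAD to PSAO, the PSA genes) and 10 of other photosystem II proteins (PSBO to PSBY, the PSB genes). The genes were listed by identifier and role, not by a threshold on measured values, and are 43 of the 32833 genes in the deposited table.

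RNA-seq counts were available for 30 libraries of 5-day-old seedlings, 3 for each of 5 genotypes under 2 conditions. Seedlings stood for 3 h in liquid medium with 50 µM abscisic acid (ABA), a stress hormone that restrains germination and seedling growth, or without it (mock). The genotypes were *dxo1*, a T-DNA mutant of DXO1, *dxo1*/*cDXO1*, the same mutant carrying the C-terminal catalytic domain of DXO1, *rnmt1-3*, a knockdown allele of the mRNA cap methyltransferase RNMT1, *dxo1*/*NTE*, the *dxo1* mutant carrying only the N-terminal extension of DXO1, and wild type (WT). Both transgenes were driven by the promoter of DXO1, and both transgenic lines carry the *dxo1* mutation. DXO1 has a catalytic domain that removes NAD caps from RNA and a plant-specific N-terminal extension that activates RNMT1, so *dxo1*, *dxo1*/*cDXO1* and *rnmt1-3* are called capping mutants below. The comparisons ask how the photosystem genes differ between each line and WT, and between each transgenic line and *dxo1*. They also cover the response to ABA.

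Light-harvesting proteins bind chlorophyll and carotenoids and pass excitation energy to the reaction centres. LHCB1 and LHCB2 form the trimers of LHCII together with LHCB3, and phosphorylation of LHCII takes part in sharing energy between the photosystems. LHCB4, LHCB5 and LHCB6, also called CP29, CP26 and CP24, link the trimers to the photosystem II core. LHCA proteins form a belt on one side of photosystem I. The nuclear PSA proteins include the docking site of ferredoxin and stabilizing small subunits, while PSBO, PSBP and PSBQ shield the manganese cluster that splits water, and PSBS triggers dissipation of excess light as heat. These nuclear genes are induced by light during greening and are among the most highly transcribed genes of a green seedling.

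Levels are given as RPKM (counts per kilobase of transcript, scaled to library size, TMM scaled), which allows comparison between genes. They are relative to the other transcripts of a library and do not give amounts of mRNA per seedling. *LHCB1.3* (AT1G29930) had the highest mean over the 30 libraries, 6403 RPKM, the second-highest of all genes. Means of 2284, 2061 and 1836 RPKM followed for *LHCB1.1* (AT1G29920), *LHCB1.2* (AT1G29910) and *PSBR* (AT1G79040), the gene of a small photosystem II subunit. The lowest levels above 0 belonged to *LHCB7* with 6.10 RPKM and *LHCB4.3* with 16.7 RPKM. Of the 43 genes 42 passed the filter on low counts in every comparison. The missing one, *LHCB1.5* (AT2G34420), had 0 counts in all 30 libraries, and no limit on its level can be given.

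The zero of *LHCB1.5* coincides with its place in the annotation. In TAIR10.1 the gene spans chr2:14522524-14523568 on the minus strand, and all 1045 of its exon bases lie within exons of a long non-coding RNA on the plus strand, AT2G08665, which also had 0 counts. Among protein-coding genes whose exon bases are all shared with another gene, 342 of 349 (98.0%) had 0 counts in every library, against 2233 of 19961 (11.2%) of those that share none. The level of *LHCB1.5* is therefore unknown. *PSAG* shares 61.4% of its exon bases with another gene, *PSAH-1* 53.3%, *LHCB2.3* 40.6% and *PSAE-1* 34.1%, and their RPKM values may be too low. Comparisons of 1 gene between groups use the same bases in every library.

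Near-identical copies set another limit. The LHCB1 genes lie in 2 clusters, with *LHCB1.2*, *LHCB1.1* and *LHCB1.3* between positions 10472280 and 10479114 of chromosome 1 and *LHCB1.5* and *LHCB1.4* side by side on chromosome 2. Exon windows of 100 bases that occur again elsewhere in the genome made up 13.7% of *LHCB2.2*, 10.7% of *LHCB2.1* and 1.51% to 4.44% of the LHCB1 genes, and none were found for the other members. Reads from such stretches could be assigned to a wrong copy or dropped, so the copies of LHCB1 and of LHCB2 were also summed.

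Promoters of the members that differed most between groups are shown with 2 of their weaker-moving relatives, because copies of 1 protein went apart in the data below. Each line gives the 200 bases before the annotated gene start, 5′ to 3′ on the strand of the gene, from TAIR10.1. They lie at chr2:1824481-1824680 (minus strand), chr2:1800473-1800672 (minus), chr3:10255706-10255905 (plus), chr3:2717357-2717556 (plus), chr5:208666-208865 (plus), chr2:14524407-14524606 (plus) and chr1:10477685-10477884 (plus). Capitals mark the CCAAT box (CCAAT, or ATTGG on the opposite strand), the G-box (CACGTG) and the I-box (GATAAG, or its reverse complement).
LHCB2.1: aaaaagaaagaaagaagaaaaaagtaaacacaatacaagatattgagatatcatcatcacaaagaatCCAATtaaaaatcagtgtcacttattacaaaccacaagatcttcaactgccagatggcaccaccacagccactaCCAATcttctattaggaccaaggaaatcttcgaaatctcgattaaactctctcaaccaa
LHCB2.2: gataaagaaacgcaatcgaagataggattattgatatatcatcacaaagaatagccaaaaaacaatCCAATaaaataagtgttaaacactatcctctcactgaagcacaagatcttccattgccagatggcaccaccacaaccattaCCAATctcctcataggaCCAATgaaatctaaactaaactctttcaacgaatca
LHCB2.3: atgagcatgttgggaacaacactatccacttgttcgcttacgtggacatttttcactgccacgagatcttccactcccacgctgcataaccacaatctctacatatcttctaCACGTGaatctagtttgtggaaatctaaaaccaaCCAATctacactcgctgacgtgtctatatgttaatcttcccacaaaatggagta
LHCB4.2: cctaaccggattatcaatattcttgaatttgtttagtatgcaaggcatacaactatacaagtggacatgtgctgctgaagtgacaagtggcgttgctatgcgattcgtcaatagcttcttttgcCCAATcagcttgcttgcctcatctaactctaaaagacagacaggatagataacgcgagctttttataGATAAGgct
LHCB4.1: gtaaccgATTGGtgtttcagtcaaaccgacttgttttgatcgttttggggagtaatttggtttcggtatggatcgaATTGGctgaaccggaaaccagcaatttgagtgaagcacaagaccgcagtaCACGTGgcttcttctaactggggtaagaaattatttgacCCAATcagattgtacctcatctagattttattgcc
LHCB1.4: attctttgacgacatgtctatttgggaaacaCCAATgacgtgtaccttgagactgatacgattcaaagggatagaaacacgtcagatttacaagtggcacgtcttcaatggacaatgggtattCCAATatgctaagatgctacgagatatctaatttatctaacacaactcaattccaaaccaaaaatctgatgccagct
LHCB1.3: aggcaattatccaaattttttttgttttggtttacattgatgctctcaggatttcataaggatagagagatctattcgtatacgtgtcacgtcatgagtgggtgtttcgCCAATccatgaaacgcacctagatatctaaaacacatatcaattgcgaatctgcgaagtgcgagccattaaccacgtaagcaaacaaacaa

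A CCAAT box was found on either strand of this window in all 9 LHCB1 to LHCB3 genes, in 25 of the 43 members (58.1%) and in 10864 of 27443 protein-coding genes (39.6%). The G-box occurred in 9 members (20.9%), against 5.64% of protein-coding genes, and the I-box in 8 members (18.6%), against 9.97%. None of the LHCB1 to LHCB3 genes had an I-box and 1 of 9, *LHCB2.3*, had a G-box. The promoters of *LHCB2.1* and *LHCB2.2* share the run tgccagatggcaccaccaca, 20 bases long, which is the longest run shared by any of the 903 pairs of member promoters (median 8 bases). These matches describe letters in a window and not sites in use.

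Total counts were 17961410 to 23249299 per library. Within their group, 27 libraries correlated with the others at a mean r of 0.990 to 0.994 (log2 CPM), whereas WT mock replicate 1 reached 0.970 and replicates 2 and 3 reached 0.982. Counts of called members against WT mock are therefore given with and without replicate 1. Fold changes of single genes include it, except where stated for *PSBY*. DXO1 (AT4G17620) stood at 8.97 to 11.8 RPKM in *dxo1*, 109 to 148 RPKM in the 2 transgenic lines, 22.4 to 25.6 RPKM in *rnmt1-3* and 20.1 to 25.6 RPKM in WT. RNMT1 (AT3G20650) had 7.86 to 8.57 RPKM in *rnmt1-3* and 9.93 to 12.5 RPKM in WT under mock, but after ABA the ranges overlapped, with 8.76 to 9.45 RPKM in *rnmt1-3* and 8.92 to 10.4 RPKM in WT. RNMT1 also varied in *dxo1*/*NTE* after ABA, with 20.2, 33.8 and 11.4 RPKM. Root and shoot epidermis markers were present in every library and seed storage transcripts stayed at or near 0.

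Under mock, the LHCB2 genes, *LHCB3*, *LHCB1.1* and *LHCB4.2* had higher relative mRNA levels in the capping mutants than in WT. *LHCB1.3*, *LHCB4.1* and *PSBR*, among the most abundant members, were lower in *dxo1* and not called in the other capping mutants. *LHCB2.2*, the LHCB2 copy with the highest level, had 541, 365 and 291 RPKM in *dxo1*/*cDXO1*, 572, 421 and 313 in *rnmt1-3*, 316, 258 and 222 in *dxo1*, 155, 92.6 and 85.9 in *dxo1*/*NTE* and 69.9, 66.5 and 62.3 in WT. Every library of the 3 capping mutants was above every WT library, and the *dxo1*/*NTE* libraries lay between. The log2 fold changes against WT were 2.61 ± 0.21 in *dxo1*/*cDXO1*, 2.72 ± 0.21 in *rnmt1-3* and 2.01 ± 0.14 for *dxo1* (SE), with adjusted p of 0.000187, 0.000323 and 0.000163. *LHCB2.1* changed by 2.203 in *dxo1*/*cDXO1*, 2.05 in *rnmt1-3* and 1.57 for *dxo1* and *LHCB2.3* by 2.85 in *dxo1*/*cDXO1*, 2.58 in *rnmt1-3* and 1.89 for *dxo1* on the log2 scale, all called. Summed over the 3 copies, LHCB2 was 5.38-fold higher in *dxo1*/*cDXO1*, 5.26-fold in *rnmt1-3* and 3.45-fold for *dxo1* than in WT (adjusted p of 0.000457, 0.00103 and 0.000678).

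The LHCB1 copies differed among themselves. *LHCB1.3* had 7267, 6381 and 6089 RPKM in *dxo1*/*cDXO1*, 7386, 7079.6 and 6212 in *rnmt1-3*, 4935, 4721 and 4991 in *dxo1*, 5762, 5628 and 5966 in *dxo1*/*NTE* and 7189, 8001 and 7272 in WT under mock. The *dxo1* libraries lay below all WT libraries, the change being -0.61 ± 0.09 SE, adjusted p = 0.00337, while *dxo1*/*cDXO1* and *rnmt1-3* overlapped WT. *LHCB1.4*, a minor copy, had 928, 753 and 638 RPKM in *dxo1*/*cDXO1*, 828, 733 and 586 in *rnmt1-3*, 499.8, 484 and 470.1 in *dxo1*, 549, 634 and 629 in *dxo1*/*NTE* and 434, 371 and 251 in WT. Here all mutant libraries were above WT, and the change was called in *dxo1*/*cDXO1* (1.15 ± 0.21 SE, adjusted p = 0.00587) and in *rnmt1-3* (1.03 ± 0.21 SE, adjusted p = 0.0112) but not in *dxo1* (0.47 ± 0.18 SE, adjusted p = 0.0852). *LHCB1.1* rose by 1.17 in *dxo1*/*cDXO1*, 0.95 in *rnmt1-3* and 0.70 for *dxo1* on the log2 scale, and *LHCB3*, which forms trimers near the photosystem II core, by 1.21 in *dxo1*/*cDXO1*, 1.204 in *rnmt1-3* and 0.60 for *dxo1*. The summed LHCB1 copies, lacking *LHCB1.5*, did not pass the test in any of the 3 mutants (log2 fold changes of 0.26 in *dxo1*/*cDXO1*, 0.17 in *rnmt1-3* and -0.20 for *dxo1*). In seedlings, a change in mRNA per cell and a change in the share of green cells cannot be told apart.

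**Figure D1:**
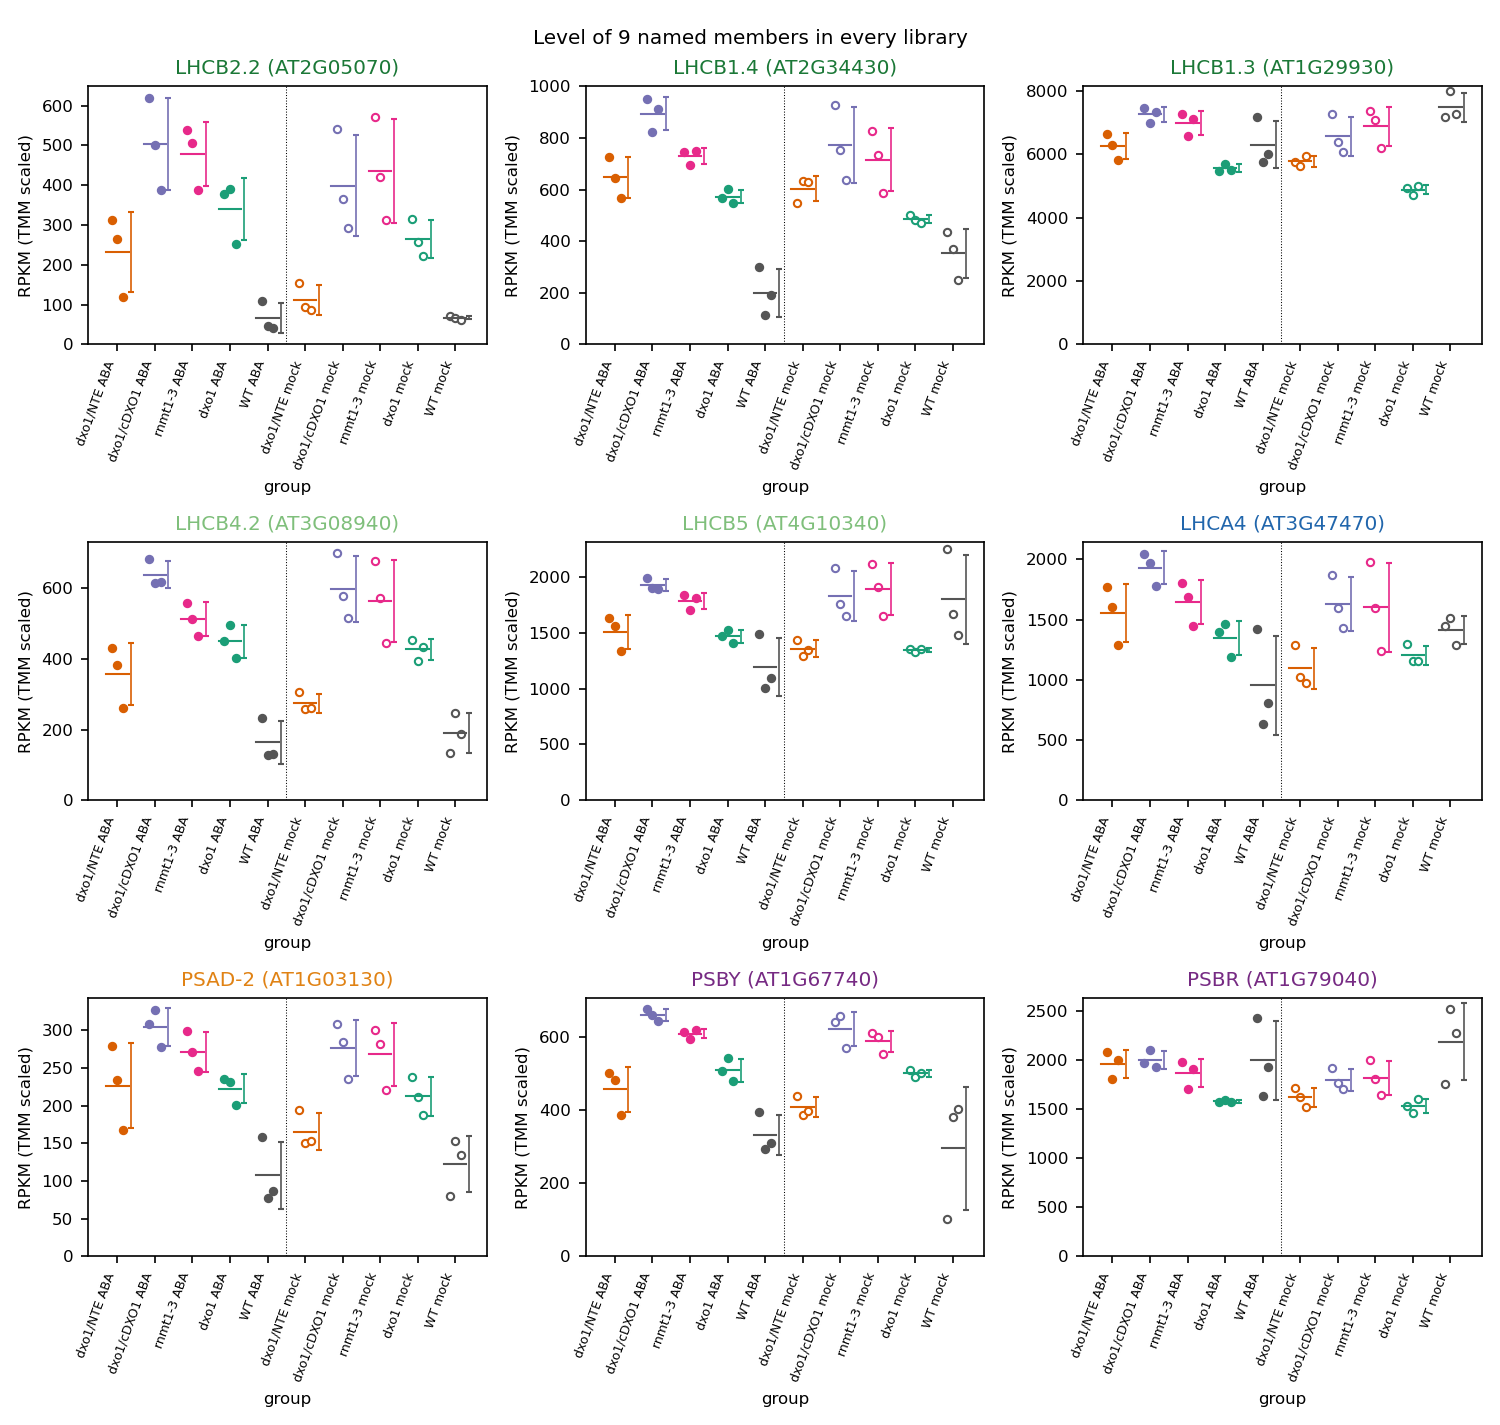
RPKM (TMM scaled) of 9 named members in each library, with groups on the horizontal axis (ABA left, filled points; mock right, open points), the group mean as a line and its SD as a bar (n = 3). *LHCB2.2*, *LHCB4.2* and *PSAD-2* stand higher in *dxo1*, *dxo1*/*cDXO1* and *rnmt1-3* than in WT under both conditions, whereas *LHCB1.3* and *PSBR* do not.

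The same split occurred within the minor antenna. *LHCB4.2* had 701, 578 and 516 RPKM in *dxo1*/*cDXO1*, 678, 572 and 444 in *rnmt1-3*, 454, 395 and 433 in *dxo1*, 305, 257 and 261 in *dxo1*/*NTE* and 135, 248 and 188 in WT, with no overlap between any mutant group and WT. Its log2 fold changes were 1.66 ± 0.22 in *dxo1*/*cDXO1*, 1.57 ± 0.23 in *rnmt1-3* and 1.18 ± 0.20 for *dxo1* (adjusted p of 0.00138, 0.00344 and 0.0053). *LHCB4.1* (AT5G01530), the main copy of the same protein, had 1573, 1328 and 1333 RPKM in *dxo1*/*cDXO1*, 1500.0, 1465 and 1268 in *rnmt1-3*, 1086, 1074 and 1128 in *dxo1*, 1415, 1330.5 and 1359 in *dxo1*/*NTE* and 1690.3, 1445 and 1351 in WT and was lower in *dxo1* (-0.44 ± 0.10 SE, adjusted p = 0.0179) and not called in the other capping mutants. *LHCB5*, the most abundant minor antenna gene, had 2082, 1755 and 1653 RPKM in *dxo1*/*cDXO1*, 2117, 1909 and 1655 in *rnmt1-3*, 1359, 1325 and 1358 in *dxo1*, 1438, 1289.8 and 1347 in *dxo1*/*NTE* and 2249, 1672 and 1484 in WT. Its *dxo1* libraries lay below WT without passing the test (-0.41 ± 0.15 SE, adjusted p = 0.0762), and WT mock replicate 1 was the highest of all.

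Of the 6 antenna genes of photosystem I, 0 rose and 2 fell in *dxo1*, 2 rose and 0 fell in *dxo1*/*cDXO1*, and none was called in *rnmt1-3* or *dxo1*/*NTE*. Of all tested genes, 13% rose and 11.8% fell in *dxo1*, and 12.1% and 11.4% in *dxo1*/*cDXO1*. The shares were 10.1% and 8.76% in *rnmt1-3*, and 0.85% and 0.755% in *dxo1*/*NTE*. *LHCA4* had 1874, 1597 and 1429.7 RPKM in *dxo1*/*cDXO1*, 1976, 1594 and 1236 in *rnmt1-3*, 1298, 1153 and 1158 in *dxo1*, 1293, 1024 and 971 in *dxo1*/*NTE* and 1448, 1514 and 1286 in WT under mock and was called in none of the 4 lines. *LHCA5*, a low-level gene whose protein helps join photosystem I to the NDH complex, had 92.2, 88.9 and 79.2 RPKM in *dxo1*/*cDXO1*, 82.2, 73.9 and 70.9 in *rnmt1-3*, 70.3, 71.2 and 73.7 in *dxo1*, 68.9, 66.6 and 65.2 in *dxo1*/*NTE* and 154, 92.3 and 93.6 in WT. All lines were below WT, and the difference was called in *dxo1* (-0.64 ± 0.19 SE, adjusted p = 0.0373), with replicate 1 far above the other WT libraries. *LHCA6*, with a similar role, had 37.6, 38.8 and 30.7 RPKM in *dxo1*/*cDXO1*, 24.4, 20.3 and 16.9 in *rnmt1-3*, 32.7, 30.1 and 29.9 in *dxo1*, 23.5, 17.6 and 21.4 in *dxo1*/*NTE* and 26.6, 26.9 and 26.9 in WT. It was higher than WT in *dxo1*/*cDXO1* (0.43 ± 0.11 SE, adjusted p = 0.0276) and below all WT libraries, though not called, in *rnmt1-3* (-0.38 ± 0.14 SE, adjusted p = 0.0881) and *dxo1*/*NTE* (-0.36 ± 0.13 SE, adjusted p = 0.174). *LHCA2* was the member with the largest fall in *dxo1*, -0.80 ± 0.12 SE, adjusted p = 0.00253, and *LHCA1* was higher in *dxo1*/*cDXO1* (0.62 ± 0.13 SE, adjusted p = 0.0108).

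Among the PSA genes, *PSAD-2* had 308, 285 and 236 RPKM in *dxo1*/*cDXO1*, 301, 282 and 221 in *rnmt1-3*, 238, 212 and 187 in *dxo1*, 195, 150.031 and 153 in *dxo1*/*NTE* and 80.4, 153 and 135 in WT, one of 2 genes for the subunit that docks ferredoxin. All capping mutant libraries were above WT, by 1.18 ± 0.22 in *dxo1*/*cDXO1*, 1.13 ± 0.23 in *rnmt1-3* and 0.80 ± 0.22 for *dxo1* on the log2 scale (adjusted p of 0.00688, 0.0112 and 0.0328). *PSAE-2* had 368, 323 and 332 RPKM in *dxo1*/*cDXO1*, 342, 313 and 267 in *rnmt1-3*, 276, 260.4 and 295 in *dxo1*, 393, 383 and 381 in *dxo1*/*NTE* and 332, 446 and 388 in WT and was lower in *dxo1* (-0.48 ± 0.13 SE, adjusted p = 0.027). Its *dxo1* libraries did not overlap WT. *PSAO*, the PSA gene with the highest mean, had 1643, 1339 and 1380.2 RPKM in *dxo1*/*cDXO1*, 1647, 1563 and 1404 in *rnmt1-3*, 1207, 1124 and 1230.4 in *dxo1*, 1102, 991 and 1015 in *dxo1*/*NTE* and 1439.9, 1215 and 1131 in WT, with no call against WT in any line.

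The PSB genes were mixed as well. *PSBR* had 1923, 1762 and 1703 RPKM in *dxo1*/*cDXO1*, 1996, 1808 and 1644 in *rnmt1-3*, 1529, 1461 and 1599 in *dxo1*, 1714, 1624 and 1520.2 in *dxo1*/*NTE* and 1760.3, 2523 and 2280.3 in WT and was lower in *dxo1* (-0.51 ± 0.14 SE, adjusted p = 0.0327), where no library reached WT. *PSBS* had 735, 655 and 613 RPKM in *dxo1*/*cDXO1*, 535, 487 and 451 in *rnmt1-3*, 597, 548 and 610.0 in *dxo1*, 458, 398 and 435 in *dxo1*/*NTE* and 500.3, 394 and 417 in WT. It rose in *dxo1* (0.43 ± 0.11 SE, adjusted p = 0.0231) and in *dxo1*/*cDXO1* (0.63 ± 0.13 SE, adjusted p = 0.00897), and *rnmt1-3* was not called. *PSBY*, a small subunit, had 641, 658 and 572 RPKM in *dxo1*/*cDXO1*, 611, 601 and 556 in *rnmt1-3*, 511, 491 and 503 in *dxo1*, 440.5, 388 and 397 in *dxo1*/*NTE* and 103, 382 and 403 in WT. The 3 capping mutants were above all WT libraries by 1.09 in *dxo1*/*cDXO1*, 1.00 in *rnmt1-3* and 0.77 for *dxo1* on the log2 scale, but none of these passed the test with the 103 RPKM of WT mock replicate 1 in the fit (adjusted p of 0.0904, 0.125 and 0.217). Without that library the values were 0.68, 0.59 and 0.36 in the same order and all 3 were called (adjusted p of 2.31e-05, 4.57e-05 and 0.000158).

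Counted over the 42 tested members, 8 rose and 9 fell in *dxo1* under mock, against 13% and 11.8% of all tested genes. In *dxo1*/*cDXO1* 13 rose and 0 fell, against 12.1% and 11.4% of all genes, and in *rnmt1-3* 9 rose and 0 fell, against 10.1% and 8.76%. The median log2 fold change of the members was 0.31 in *dxo1*/*cDXO1*, 0.21 in *rnmt1-3* and -0.03 for *dxo1*, where the median of all genes lay between -0.01 and 0.00. In *dxo1*/*NTE* only *LHCB2.3* rose and 0 fell, against 0.85% and 0.755% of all genes, with a median of -0.01. The 4 comparisons share the WT libraries, so their counts are not independent. Of the members that rose, LHCB1 to LHCB3 genes were 7 of 13 in *dxo1*/*cDXO1*, 6 of 9 in *rnmt1-3* and 5 of 8 for *dxo1*, while 1 of 12 PSA genes rose in each.

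These counts depended on the library and on the fit. The shares of all genes above belong to the main fits. The counts below have no such share beside them, so they cannot be set against all genes. A fit of all 30 libraries called 18 members higher and 4 lower in *dxo1*/*cDXO1*, 17 higher and 5 lower in *rnmt1-3*, and 2 higher and 8 lower in *dxo1*/*NTE*. Without WT mock replicate 1, 12 members rose and 21 fell in *dxo1*, 20 rose and 4 fell in *dxo1*/*cDXO1*, 17 rose and 6 fell in *rnmt1-3*, and 3 rose and 10 fell in *dxo1*/*NTE*. Leaving out *dxo1* mock replicate 1, 2 or 3 gave 9, 10 or 11 calls in *dxo1*, leaving out *dxo1*/*cDXO1* mock replicate 1 gave 8 calls, and the call in *dxo1*/*NTE* was lost without any one of the other 5 libraries. *LHCB2.1*, *LHCB2.2*, *LHCB2.3*, *LHCB1.1*, *LHCB3*, *LHCB4.2* and *PSAD-2* were higher in all 3 capping mutants both with and without that library. *LHCB1.3*, *LHCB4.1*, *LHCA2*, *LHCA5*, *PSAE-2*, *PSAK*, *PSAN*, *PSBO1* and *PSBR* were lower in *dxo1* both ways.

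**Figure D2:**
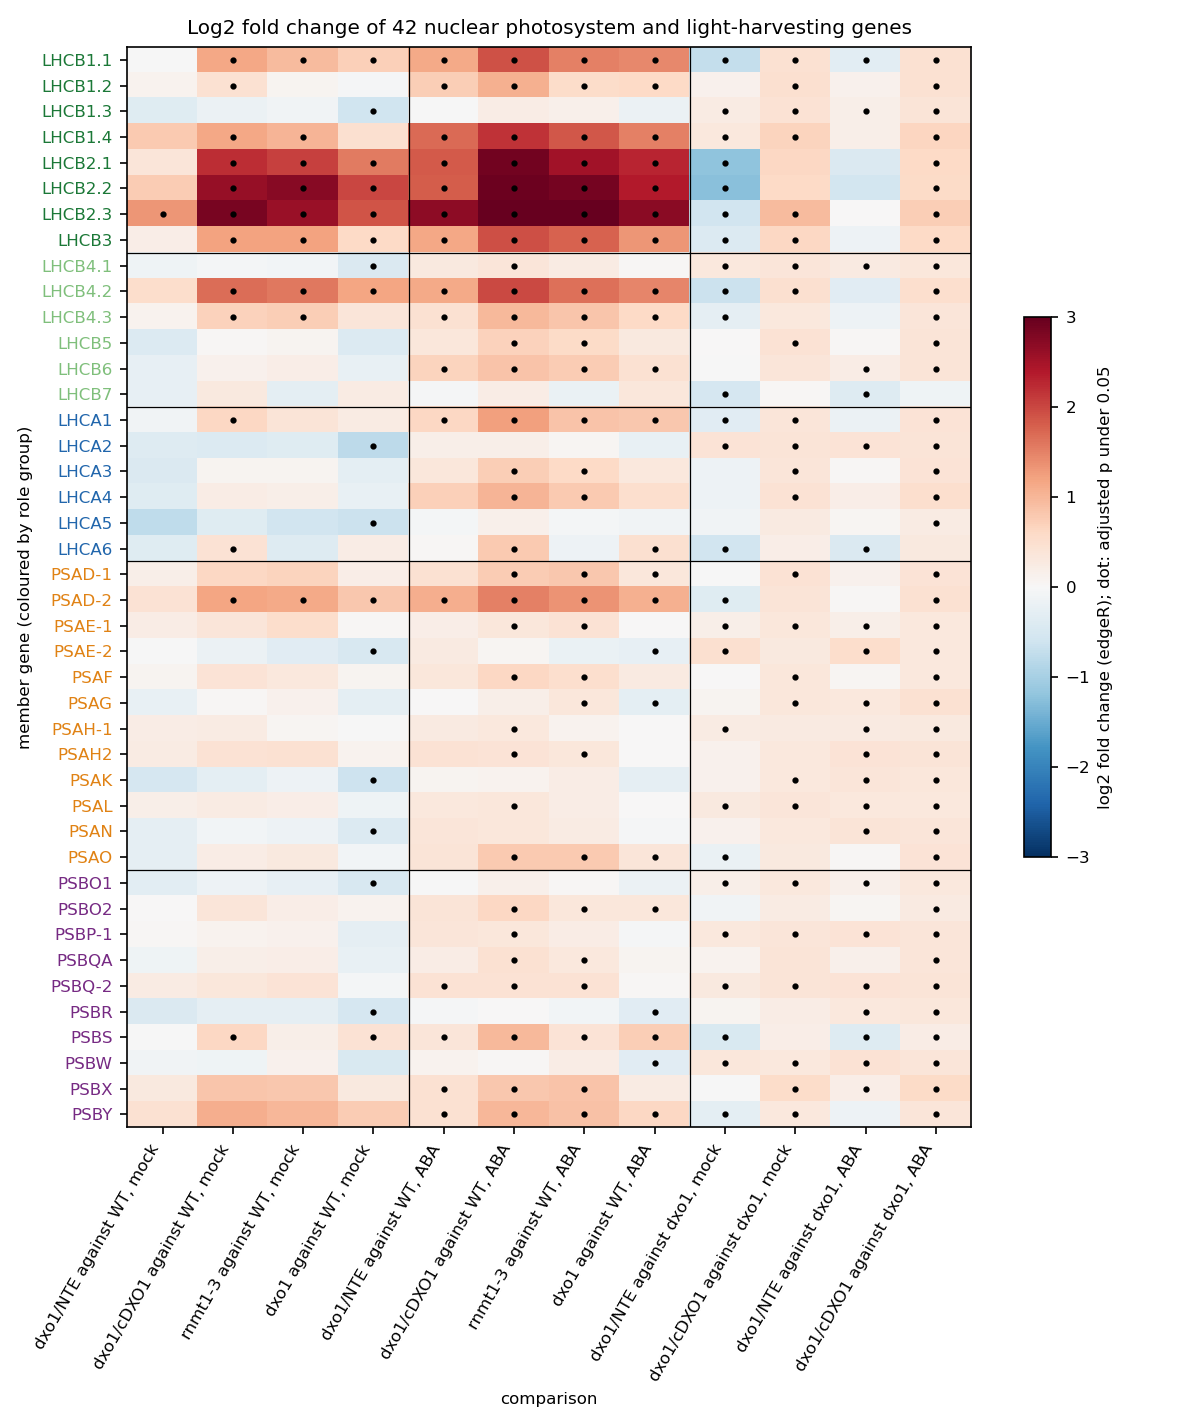
Log2 fold change of each of the 42 tested members (rows, coloured by role group) in 8 comparisons with WT and 4 with *dxo1* (columns), with a dot where the adjusted p was under 0.05. The LHCB2 genes reach 3.44 in *dxo1*/*cDXO1* after ABA, and the columns of *dxo1*/*cDXO1* against *dxo1* are positive for 42 members under mock and 41 after ABA.

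After ABA, 7 of the 8 LHCB1 to LHCB3 genes tested rose in each of the 4 lines against WT. Of all tested genes, 23.6% rose in *dxo1*/*cDXO1*, 19.7% in *rnmt1-3*, 22.6% in *dxo1* and 4.62% in *dxo1*/*NTE*. *LHCB2.2* had 619.9, 502 and 389 RPKM in *dxo1*/*cDXO1*, 539.6, 507 and 387 in *rnmt1-3*, 379, 390.2 and 251 in *dxo1*, 311, 265 and 119.6 in *dxo1*/*NTE* and 110.0, 46.6 and 41.3 in WT. No library of the 4 lines reached down to WT, with log2 fold changes of 2.94 ± 0.29 in *dxo1*/*cDXO1*, 2.86 ± 0.28 in *rnmt1-3*, 2.37 ± 0.29 in *dxo1* and 1.81 ± 0.36 in *dxo1*/*NTE* (adjusted p of 3.39e-06, 7.64e-06, 3.51e-05 and 0.0084). *LHCB1.4* had 949.6, 824 and 911 RPKM in *dxo1*/*cDXO1*, 746, 695 and 751 in *rnmt1-3*, 569, 601 and 549 in *dxo1*, 728, 647 and 568 in *dxo1*/*NTE* and 298, 113 and 190.0 in WT. It rose in all 4 lines, by 2.17 ± 0.24 in *dxo1*/*cDXO1*, 1.87 ± 0.24 in *rnmt1-3*, 1.52 ± 0.23 in *dxo1* and 1.69 ± 0.24 in *dxo1*/*NTE*, with adjusted p of 7.77e-06, 5.09e-05, 0.000206 and 0.00122. *LHCB1.3* had 7464, 7005 and 7348 RPKM in *dxo1*/*cDXO1*, 7288, 6586 and 7120.2 in *rnmt1-3*, 5494, 5714 and 5497 in *dxo1*, 6633, 6309 and 5817 in *dxo1*/*NTE* and 7172, 5759 and 6008 in WT and was called in none. Summed over its copies, LHCB2 was 7.70-fold higher in *dxo1*/*cDXO1*, 6.59-fold in *rnmt1-3*, 5.07-fold in *dxo1* and 3.69-fold in *dxo1*/*NTE* than in WT after ABA, all called. Summed LHCB1 rose by 0.74 in *dxo1*/*cDXO1*, 0.51 in *rnmt1-3* and 0.30 for *dxo1* on the log2 scale, and its 0.35 in *dxo1*/*NTE* did not pass (adjusted p = 0.0928). *LHCB4.2* had 682, 615 and 619 RPKM in *dxo1*/*cDXO1*, 559, 514 and 464 in *rnmt1-3*, 452, 496 and 402 in *dxo1*, 430.0, 382 and 261 in *dxo1*/*NTE* and 233, 128 and 131 in WT. Its changes of 1.97 ± 0.18 in *dxo1*/*cDXO1*, 1.65 ± 0.18 in *rnmt1-3*, 1.46 ± 0.18 in *dxo1* and 1.13 ± 0.21 in *dxo1*/*NTE* were all called (adjusted p of 1.33e-06, 1.68e-05, 3.61e-05 and 0.00693).

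More abundant genes also passed the test after ABA. *LHCA4* had 2042, 1974 and 1778 RPKM in *dxo1*/*cDXO1*, 1807, 1691 and 1444 in *rnmt1-3*, 1395, 1465 and 1193 in *dxo1*, 1771, 1607 and 1292 in *dxo1*/*NTE* and 1421, 635 and 808 in WT. It was higher in *dxo1*/*cDXO1* (1.02 ± 0.21 SE, adjusted p = 0.00126) and *rnmt1-3* (0.79 ± 0.21 SE, adjusted p = 0.0107), and WT replicate 1 lay well above the other WT libraries. *LHCB5* had 1995, 1904 and 1890.3 RPKM in *dxo1*/*cDXO1*, 1843, 1709 and 1811 in *rnmt1-3*, 1473, 1528 and 1409 in *dxo1*, 1630.2, 1559.5 and 1336 in *dxo1*/*NTE* and 1489.6, 1003 and 1098 in WT, and rose in *dxo1*/*cDXO1* (0.70 ± 0.12 SE, adjusted p = 0.000332) and *rnmt1-3* (0.58 ± 0.12 SE, adjusted p = 0.00215). *PSAO* had 1647, 1639 and 1633 RPKM in *dxo1*/*cDXO1*, 1730.5, 1548 and 1662 in *rnmt1-3*, 1216, 1248 and 1208 in *dxo1*, 1360.3, 1264 and 1165 in *dxo1*/*NTE* and 1208, 765 and 899 in WT. It rose in the 3 capping mutants, by 0.78 ± 0.13 in *dxo1*/*cDXO1*, 0.79 ± 0.13 in *rnmt1-3* and 0.36 ± 0.13 for *dxo1* (adjusted p of 0.000201, 0.000416 and 0.0345). *PSBY* had 679, 662 and 644 RPKM in *dxo1*/*cDXO1*, 616, 596 and 619.7 in *rnmt1-3*, 507, 543 and 480.5 in *dxo1*, 502, 484 and 387 in *dxo1*/*NTE* and 396, 294 and 309.6 in WT, and its changes of 1.00 ± 0.10 in *dxo1*/*cDXO1*, 0.88 ± 0.10 in *rnmt1-3*, 0.62 ± 0.10 in *dxo1* and 0.46 ± 0.12 in *dxo1*/*NTE* were called in all 4 lines (adjusted p of 2.91e-06, 2.09e-05, 0.000293 and 0.0353). *PSBR*, with 1969, 2104 and 1933 RPKM in *dxo1*/*cDXO1*, 1986, 1708 and 1911 in *rnmt1-3*, 1575, 1596 and 1571 in *dxo1*, 2085, 1806 and 1999 in *dxo1*/*NTE* and 2428, 1631 and 1930.2 in WT, was lower in *dxo1* only (-0.33 ± 0.11 SE, adjusted p = 0.028), and the differences between the lines' changes were not tested for it.

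The other named members varied. *PSAD-2* had 308, 328 and 278 RPKM in *dxo1*/*cDXO1*, 299, 271 and 246 in *rnmt1-3*, 235, 232 and 200.5 in *dxo1*, 279, 234 and 168 in *dxo1*/*NTE* and 159, 76.8 and 86.3 in WT, higher than WT in all 4 lines. *PSAE-2* had 364, 377 and 389.8 RPKM in *dxo1*/*cDXO1*, 319.8, 288 and 331 in *rnmt1-3*, 297, 310.3 and 304 in *dxo1*, 463, 412 and 442 in *dxo1*/*NTE* and 420.0, 319 and 347 in WT and was lower in *dxo1* (-0.25 ± 0.09 SE, adjusted p = 0.0347). *PSBS* had 723, 695 and 699 RPKM in *dxo1*/*cDXO1*, 506, 462 and 481 in *rnmt1-3*, 565, 643 and 611 in *dxo1*, 466, 467 and 466 in *dxo1*/*NTE* and 415, 322 and 349 in WT. It rose in every line, most in *dxo1*/*cDXO1* (0.97 ± 0.09 SE, adjusted p = 1.51e-06) and least in *dxo1*/*NTE* (0.36 ± 0.09 SE, adjusted p = 0.0299). *LHCA5* had 90.9, 95.3 and 91.6 RPKM in *dxo1*/*cDXO1*, 83.3, 74.8 and 84.0 in *rnmt1-3*, 76.7, 84.3 and 71.7 in *dxo1*, 80.0, 83.6 and 78.3 in *dxo1*/*NTE* and 93.5, 75.4 and 82.5 in WT with no call. *LHCA6* had 46.4, 42.6 and 35.9 RPKM in *dxo1*/*cDXO1*, 21.3, 20.8 and 23.2 in *rnmt1-3* and 33.1, 39.3 and 29.8 in *dxo1*, 24.9 to 25.5 in *dxo1*/*NTE* and 30.7, 20.7 and 21.8 in WT, and rose in *dxo1* (0.49 ± 0.14 SE, adjusted p = 0.0123) and *dxo1*/*cDXO1* (0.78 ± 0.13 SE, adjusted p = 0.000337).

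Of the 42 members, 18 rose and 4 fell in *dxo1* after ABA, against 22.6% and 21.2% of all tested genes. In *dxo1*/*cDXO1* 31 rose and 0 fell, against 23.6% and 21.8%, and in *rnmt1-3* 27 rose and 0 fell, against 19.7% and 16.6%. In *dxo1*/*NTE* 16 rose and 0 fell, against 4.62% and 3.38%. The median log2 fold change of the members was 0.31, 0.66, 0.44 and 0.37 in *dxo1*, *dxo1*/*cDXO1*, *rnmt1-3* and *dxo1*/*NTE*, and that of all genes was within 0.01 of 0 in *dxo1*, *rnmt1-3* and *dxo1*/*NTE* and -0.01 in *dxo1*/*cDXO1*. Members that fell in *dxo1* were *PSAE-2*, *PSAG*, *PSBR* and *PSBW*. These shares belong to the main fits, and the counts below have none beside them. Without WT ABA replicate 1, whose member level was the highest of the 3, 32 members rose in *dxo1*/*NTE*. Without WT ABA replicate 2 or 3 it was 10 or 5, and without *dxo1*/*NTE* ABA replicate 1 or 2 it was 8 or 7. In *dxo1* 13 rose and 0 fell without WT ABA replicate 3, and likewise without *dxo1* ABA replicate 2.

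In summed terms, the 43 genes took 5.18% ± 0.44 of all counts in *dxo1*/*cDXO1*, 5.04% ± 0.55 in *rnmt1-3*, 4.07% ± 0.08 in *dxo1*, 4.23% ± 0.16 in *dxo1*/*NTE* and 4.46% ± 0.30 in WT under mock (SD, n = 3 each). After ABA the shares were 5.42% ± 0.13, 4.92% ± 0.15, 4.29% ± 0.16, 4.69% ± 0.33 and 3.66% ± 0.68 in the same order. The WT ABA libraries had 4.41%, 3.12% and 3.44%, a wider spread than in any other group. LHCB1 to LHCB3 alone made up 1.94% ± 0.20 in *dxo1*/*cDXO1*, 1.85% ± 0.23 in *rnmt1-3*, 1.44% ± 0.05 in *dxo1*, 1.44% ± 0.05 in *dxo1*/*NTE* and 1.51% ± 0.09 in WT under mock.

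**Figure D3:**
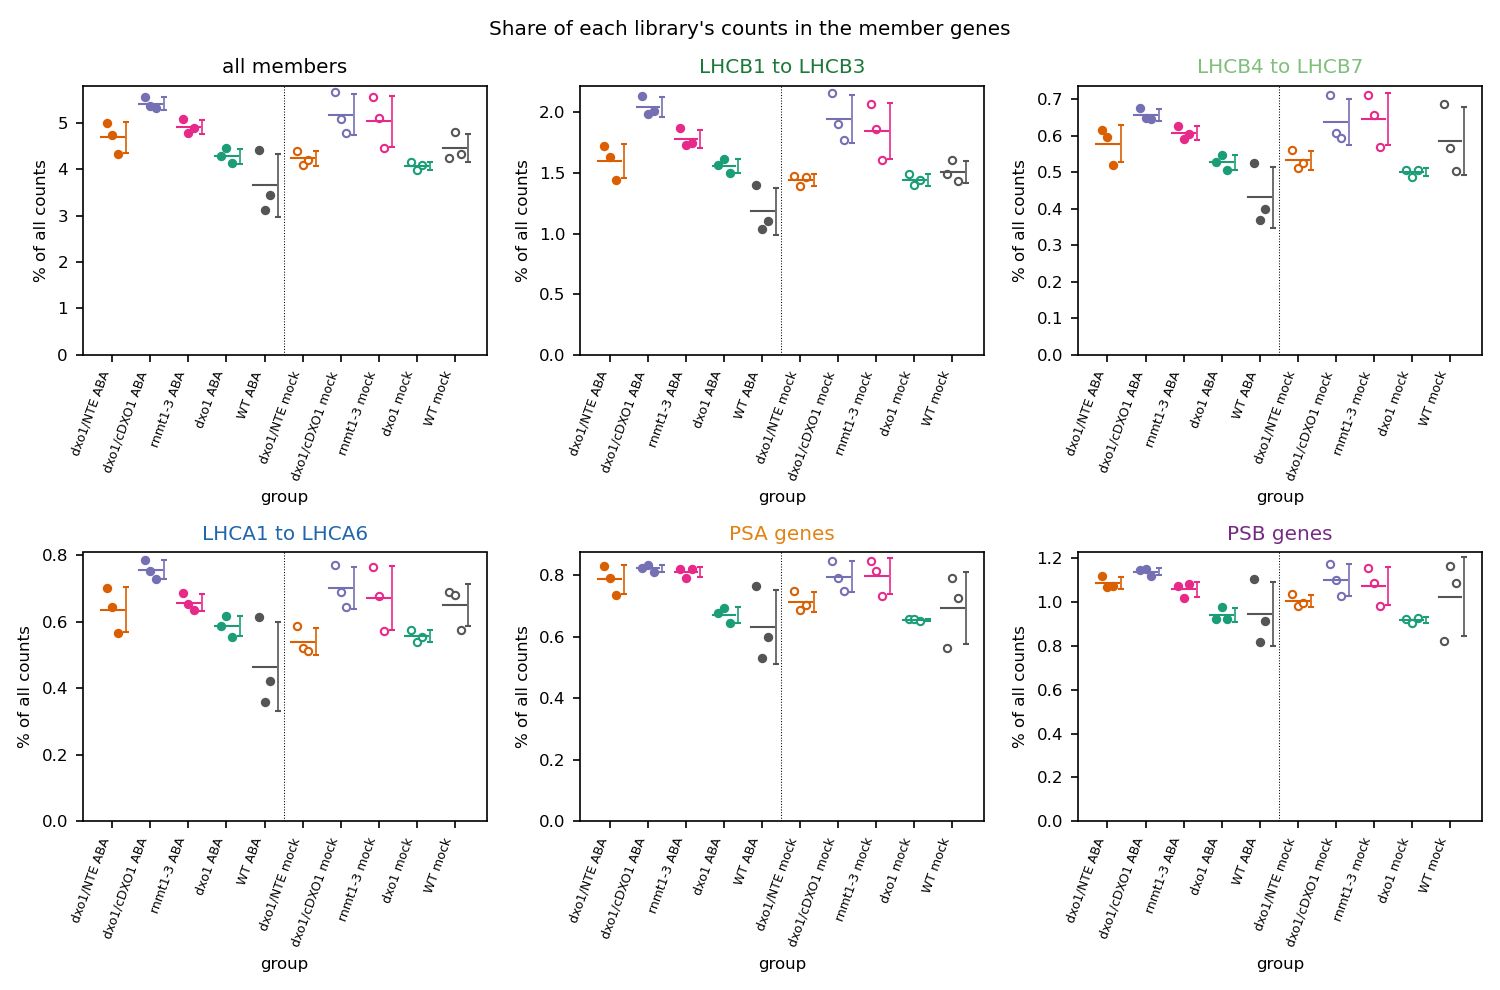
Percent of each library's counts in all 43 members and in the 5 role groups, by group (ABA left, filled; mock right, open), with mean and SD (n = 3). The *dxo1*/*cDXO1* groups have the highest means for all members, 5.42% after ABA and 5.18% under mock, and WT after ABA the lowest, 3.66%.

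Nearly all members stood higher in *dxo1*/*cDXO1* than in *dxo1*. The domain, the transgene and the higher DXO1 RNA level of this line cannot be told apart. All 42 members had a positive log2 fold change in *dxo1*/*cDXO1* against *dxo1* under mock, between 0.04 and 0.95 with a median of 0.36, and 25 rose and 0 fell. Of all tested genes 0.538% rose and 0.319% fell in this comparison, and the median of all genes was -0.01. After ABA 40 rose and 0 fell, with a median of 0.39, against 3.94% and 2.16% of all genes. *LHCB1.3* rose by 0.43 ± 0.07 SE, adjusted p = 0.00978 under mock and 0.38 ± 0.04 SE, adjusted p = 3.03e-06 after ABA, with the libraries as given above and no overlap. *PSBX* had the smallest adjusted p under mock (0.54 ± 0.07 SE, adjusted p = 0.00351), and *LHCB7*, *LHCA6* and the LHCB2 genes *LHCB2.1* and *LHCB2.2* were among the 17 members not called.

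The counts rested on the fit, and those below have no share of all genes beside them. With all 30 libraries in 1 fit 2 members rose under mock and 2 after ABA. Replicate numbers paired the libraries of these 2 groups by the correlation of their deviations, and with the replicate block 40 members rose. Without a block, leaving out *dxo1* mock replicate 1, 2 or 3 left 3, 1 or 2 calls, leaving out *dxo1*/*cDXO1* mock replicate 1 or 2 left 14 or 1, and leaving out *dxo1*/*cDXO1* mock replicate 3 gave 41. After ABA, leaving out 1 library gave between 37 and 41 calls.

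Members of *dxo1*/*NTE* differed from *dxo1* both ways, and the same limit holds for this line. In *dxo1*/*NTE* against *dxo1* under mock 12 rose and 14 fell, against 14.8% and 17.8% of all tested genes, with a member median of 0.00. All 8 members higher in *dxo1* than in WT were among the 14 that fell. *LHCB2.2* changed by -1.26 ± 0.19 SE, adjusted p = 0.000319 and *LHCB4.2* by -0.65 ± 0.08 SE, adjusted p = 7.12e-05, both without overlap of the libraries. *PSBS* fell as well (-0.45 ± 0.07 SE, adjusted p = 0.000313), and so did *LHCA6* (-0.58 ± 0.10 SE, adjusted p = 0.00113). *PSAE-2*, *LHCB1.3* and *LHCB4.1*, lower in *dxo1* than in WT, were higher in *dxo1*/*NTE* than in *dxo1* by 0.47, 0.24 and 0.31 on the log2 scale (adjusted p of 0.000189, 0.00216 and 0.000686). These 2 sets of values share the *dxo1* libraries, and their likeness in opposite sign is partly set by that.

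After ABA, *dxo1*/*NTE* and *dxo1* differed in another way, with 18 members higher and 4 lower, against 17.2% and 18.6% of all genes. *LHCB2.2* was no longer called (-0.55 ± 0.24 SE, adjusted p = 0.0842), and neither was *LHCB4.2* (-0.33 ± 0.13 SE, adjusted p = 0.0569). Of the PSA genes 8 of 12 rose and of the PSB genes 6 of 10, led by *PSAE-2* (0.53 ± 0.06 SE, adjusted p = 6.24e-06). *LHCB1.1*, *LHCA6*, *LHCB7* and *PSBS* were the 4 that fell. In *dxo1*/*NTE* the ABA libraries also varied in *LHCB2.2*, and their RNMT1 levels differed as given above; the part of this in the result was not tested. With all 30 libraries in 1 fit, 6 members rose and 7 fell in *dxo1*/*NTE* against *dxo1* under mock, and 8 rose and 3 fell after ABA.

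Copies of the same protein changed their proportion, and this was examined library by library after the fold changes had been seen. The level of *LHCB4.2* was 42.3% ± 3.1 of that of *LHCB4.1* in *dxo1*/*cDXO1*, 39.7% ± 5.1 in *rnmt1-3*, 39.0% ± 2.6 in *dxo1*, 20.1% ± 1.3 in *dxo1*/*NTE* and 13.01% ± 4.6 in WT under mock (SD, n = 3 each). No capping mutant library was below 35.0% and no WT library was above 17.1%. *PSAD-2* stood at 32.2% ± 1.2, 30.2% ± 2.8, 33.3% ± 2.4, 26.2% ± 1.6 and 21.9% ± 1.5 of *PSAD-1* in the same order, again with no overlap between the mutants and WT. *PSBO2*, a second gene for the manganese-stabilizing protein, was at 32.8% ± 0.2, 31.1% ± 1.5, 34.5% ± 0.7, 28.6% ± 1.8 and 22.8% ± 3.0 of *PSBO1*. The capping mutants did not overlap WT there either, while *rnmt1-3* overlapped *dxo1*/*NTE*.

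*LHCB1.4* relative to *LHCB1.3* followed a different order, since *dxo1*/*NTE* was as high as the capping mutants. Under mock it was 11.7% ± 1.1 in *dxo1*/*cDXO1*, 10.3% ± 0.9 in *rnmt1-3*, 9.9% ± 0.4 in *dxo1*, 10.4% ± 0.9 in *dxo1*/*NTE* and 4.7% ± 1.3 in WT. After ABA the WT ratio was 3.1% ± 1.1 and the lines stood between 9.8% and 12.7%. *PSAE-1* relative to *PSAE-2* was highest in *rnmt1-3* with 131% ± 1.8, above 106% ± 6.8 in *dxo1*/*cDXO1* and 103% ± 9.9 in *dxo1*, which overlapped, 84.7% ± 1.6 in *dxo1*/*NTE* and 70.2% ± 27.5 in WT, where WT mock replicate 1 had 38.9%. *PSBQ-2* relative to *PSBQA* overlapped between *dxo1* and WT, with 55.2% ± 2.3 in *dxo1* and 49.2% ± 17.7 in WT. The remaining pair of copies, *PSAH-1* relative to *PSAH2*, stood at 44.6% ± 2.1 in *dxo1* and 53.7% ± 14.9 in WT. No test was made on these ratios.

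**Figure D4:**
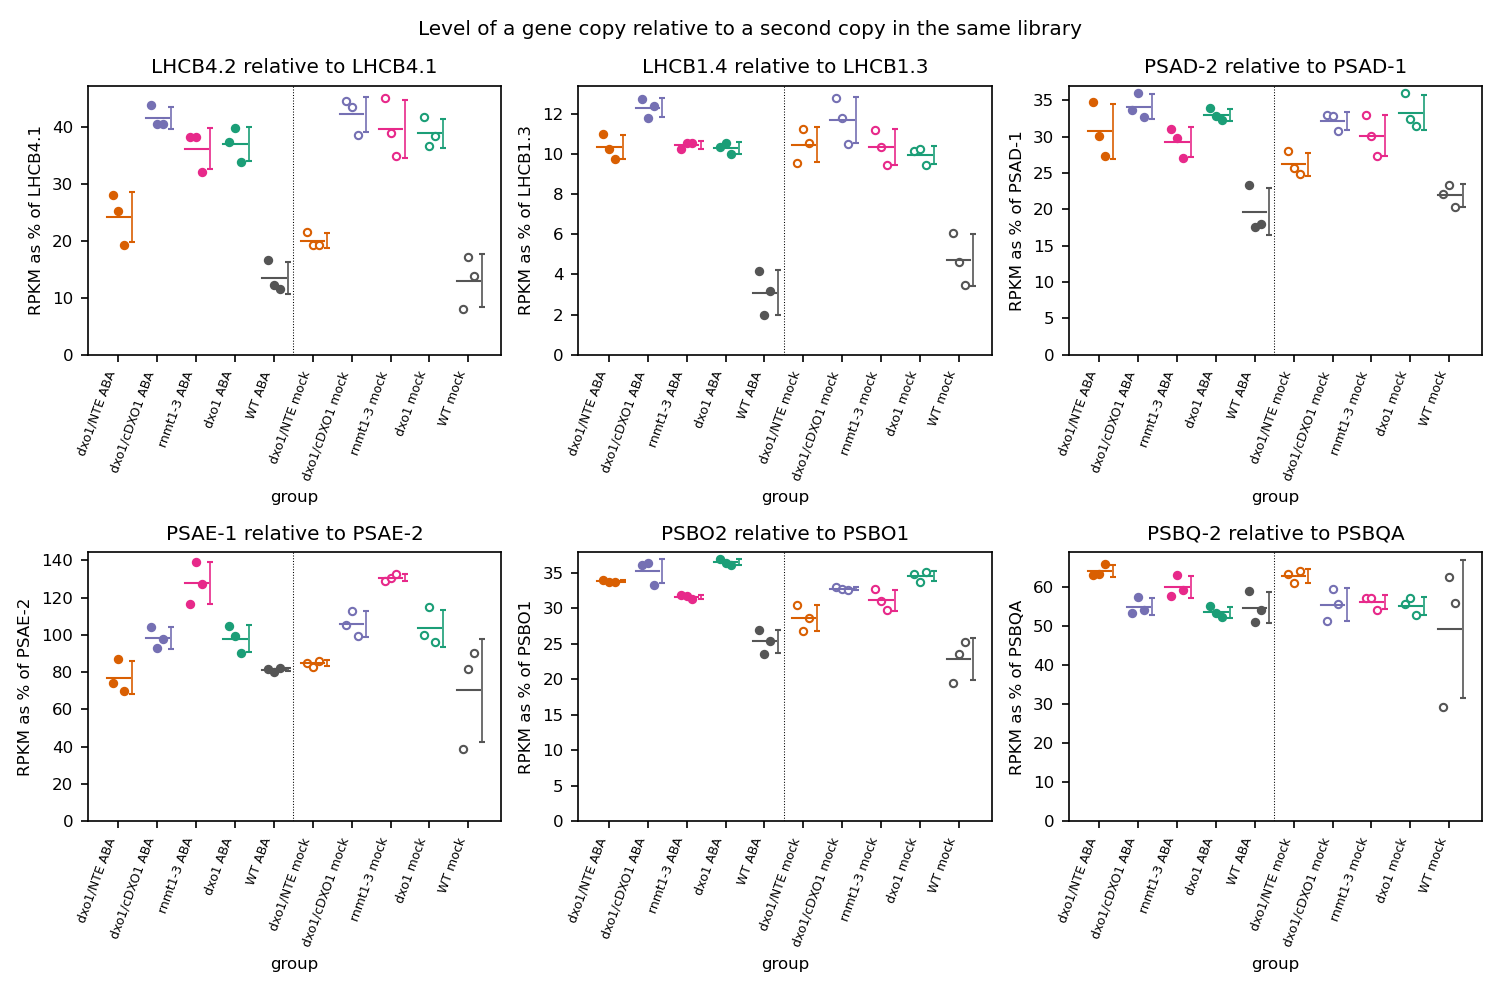
RPKM of one gene copy as a percent of a second copy in the same library, by group (ABA left, filled; mock right, open), with mean and SD (n = 3). For *LHCB4.2*, *PSAD-2* and *PSBO2* the mock groups *dxo1*, *dxo1*/*cDXO1* and *rnmt1-3* lie above WT without overlap.

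The response to ABA was then compared within each genotype. In WT 0 members rose and 0 fell by edgeR, against 10% and 6.47% of all tested genes. At an unadjusted p under 0.05 the count was 0 higher and 7 lower, and DESeq2 called 3 lower. No share of all genes is given for these or for the other fits below. A fit of all 30 libraries called 18 members, all lower. Of the 42 members 33 had a negative log2 fold change, with a median of -0.20 and a range of -0.78 to 0.20. *LHCB1.4* showed the largest value, -0.78 ± 0.33 SE, adjusted p = 0.151, with 298, 113 and 190.0 RPKM in WT after ABA and 434, 371 and 251 RPKM under mock. *LHCB5* (-0.56 ± 0.20 SE, adjusted p = 0.102), *LHCA4* (-0.54 ± 0.27 SE, adjusted p = 0.22), *PSAO* (-0.37 ± 0.18 SE, adjusted p = 0.22) and *PSBS* (-0.24 ± 0.14 SE, adjusted p = 0.307) were the largest in their role groups. Without WT ABA replicate 1, 10 members fell, and without WT mock replicate 1 the count was 0.

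In the other genotypes the sign was mostly positive. In *dxo1* 9 members rose and 0 fell after ABA, against 14.1% and 11.8% of all genes, and the largest called change was 0.25 on the log2 scale (*LHCB1.4*). In *dxo1*/*cDXO1* only *PSBO2* rose (0.19 ± 0.06 SE, adjusted p = 0.0334) and 0 fell, against 13.6% and 10.9%. In *rnmt1-3* 0 rose and 0 fell by edgeR, against 14.7% and 11.4%, with 1 member higher at an unadjusted p under 0.05 and 1 by DESeq2. In *dxo1*/*NTE* 22 rose and 0 fell, against 15.4% and 13.4% of all genes. The largest changes there were those of *LHCB2.1* (1.17 ± 0.30 SE, adjusted p = 0.00787) and *LHCB2.2* (1.07 ± 0.27 SE, adjusted p = 0.0072), whose ABA and mock libraries overlapped. Median log2 fold changes were 0.24 in *dxo1*/*NTE*, 0.11 in *dxo1*/*cDXO1*, 0.04 in *rnmt1-3* and 0.11 for *dxo1*.

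Other fits and single libraries moved these counts, and the counts below have no share of all genes beside them. With a replicate block more members were called in WT, *dxo1*, *dxo1*/*cDXO1* and *rnmt1-3*, as listed near the end of this report. Replicate numbers did not pair the ABA and mock libraries of these genotypes by the correlation of their deviations. With all 30 libraries in 1 fit 6 members were called in *dxo1*/*NTE*, 0 in *dxo1* and 0 in *dxo1*/*cDXO1*. In *dxo1* the 9 calls became 4 without mock replicate 2, 3 without ABA replicate 2 and 15 without ABA replicate 3. In *dxo1*/*cDXO1* the single call became 24 without mock replicate 1, 2 without ABA replicate 3 and 0 without any of the other 4 libraries. In *rnmt1-3* the count became 4 without mock replicate 1, 1 without mock replicate 2 and 1, a fall, without mock replicate 3. In *dxo1*/*NTE* the 22 became 9 and 12 without mock replicates 2 and 3, and 7 and 12 without ABA replicates 1 and 2.

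**Figure D5:**
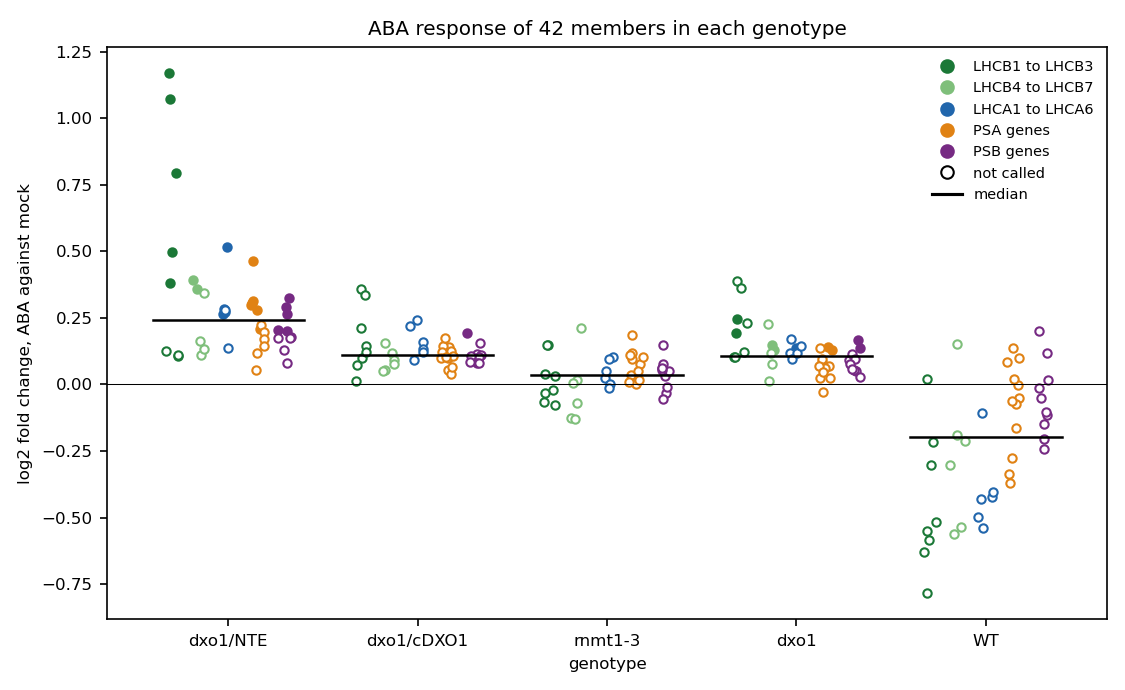
Log2 fold change of ABA against mock for the 42 tested members in each genotype, coloured by role group, with filled points for adjusted p under 0.05 and a line at the median. All 42 points of *dxo1*/*NTE* are positive (median 0.24), while 33 of 42 in WT are negative (median -0.20) and none there is called.

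The difference between a line's ABA response and that of WT was tested directly. By edgeR on the 12 libraries of each test no member passed in any line, against 0.272%, 0.233%, 0.126% and 0% of all genes for *dxo1*, *dxo1*/*cDXO1*, *rnmt1-3* and *dxo1*/*NTE*. At an unadjusted p under 0.05 the counts were 17, 14, 6 and 20, all toward a higher response in the line, and DESeq2 called 0, 0, 0 and 1. No share of all genes is given at that threshold, so these counts cannot be read as particular to the members. *LHCB1.1* had the smallest adjusted p in *dxo1*/*NTE* (1.13 ± 0.26 on the log2 scale, adjusted p = 0.199). Without WT ABA replicate 1, 3 members were called in *dxo1*/*cDXO1*, 7 in *dxo1* and 2 in *dxo1*/*NTE*. With all 30 libraries in 1 fit 2 members passed in *dxo1* and 12 in *dxo1*/*NTE*, all toward a higher response in the line, and 0 in the other lines. The calls thus depended on the fit.

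Other chloroplast genes were counted over whole lists. Under mock, 12.1% of all tested genes rose and 11.4% fell in *dxo1*/*cDXO1*, and 10.1% and 8.76% in *rnmt1-3*. In *dxo1* the shares were 13% and 11.8%, and in *dxo1*/*NTE* 0.85% and 0.755%. The small counts below are to be read beside these shares. Of 15 tested chlorophyll synthesis genes under mock, 5 rose and 1 fell in *dxo1*/*cDXO1*, 3 rose and 4 fell in *rnmt1-3*, 3 rose and 2 fell in *dxo1*, and 1 rose and 0 fell in *dxo1*/*NTE*. Of 16 Calvin cycle genes 2 rose and 1 fell, 1 rose and 3 fell, 2 rose and 4 fell, and 0 rose and 3 fell in the same order. The 15 other nuclear electron transport genes gave 5 rises and 2 falls, 2 and 3, 3 and 5, and 0 and 1. In *dxo1*/*cDXO1* against *dxo1* after ABA, 3.94% of all genes rose and 2.16% fell. There 15 of 16 Calvin cycle genes, 14 of 15 electron transport genes and 9 of 15 chlorophyll synthesis genes rose and 0 fell. The rise was thus not limited to the photosystem genes. Among 7 photoprotection and state transition genes 3 rose and 1 fell in each capping mutant under mock. Of 20 plastid-encoded photosystem identifiers 12 or 13 passed the filter, and 0 rose and 1 to 4 fell in the capping mutants under mock, but poly(A) selection makes their counts a small remainder.

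Of 21 regulators of photosynthesis genes under mock, 5 rose and 3 fell in *dxo1*/*cDXO1*, 3 rose and 1 fell in *rnmt1-3*, 3 rose and 1 fell in *dxo1*, and 2 rose and 0 fell in *dxo1*/*NTE*. The shares of all genes given for the chloroplast lists under mock apply to these counts too. The genes named here were chosen after their values were seen. *PIF5*, a repressor of greening in the dark, was higher in all 4 lines under mock, by 1.22 in *dxo1*/*cDXO1*, 0.87 in *rnmt1-3*, 1.13 in *dxo1* and 1.02 in *dxo1*/*NTE* on the log2 scale. *SIG1*, a sigma factor of the plastid polymerase, rose by 0.90 in *dxo1*/*cDXO1*, 0.58 in *rnmt1-3* and 0.83 for *dxo1*, and was at 0.06 in *dxo1*/*NTE* without a call. *GLK1* and *GLK2*, activators of antenna genes, fell in *dxo1*/*cDXO1* by 0.63 and 0.46 on the log2 scale under mock, and were not called in the other lines, with *GLK1* at -0.27 in *rnmt1-3*, -0.41 in *dxo1* and 0.16 in *dxo1*/*NTE* and *GLK2* at 0.22, -0.31 and 0.06. *CCA1*, a clock gene with a morning peak, rose after ABA in all 5 genotypes, by 2.89 in *dxo1*/*cDXO1*, 2.05 in *rnmt1-3*, 1.96 in *dxo1*, 1.47 in *dxo1*/*NTE* and 2.48 in WT. *CCA1* was also 1.81 higher in *dxo1*/*NTE* than in WT under mock. Antenna genes cycle over the day, and the hour of sampling is not given in the sources used here, so its part was not tested.

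Markers of dark and sugar starvation moved with genotype. The shares of all genes given for the chloroplast lists under mock apply to the counts below. Of 5 tested markers 5 fell in *dxo1*/*cDXO1* (median log2 fold change -2.01), 4 in *rnmt1-3* (-0.87), 5 in *dxo1* (-2.63) and 0 in *dxo1*/*NTE* (-0.29) under mock. Their summed level was 259 to 269 RPKM in *dxo1*/*cDXO1*, 286 to 318 RPKM in *rnmt1-3*, 223 to 294 RPKM in *dxo1*, 299.9 to 482 RPKM in *dxo1*/*NTE* and 536 to 613 RPKM in WT. Of 9 hypoxia markers 6, 4, 2 and 2 fell in the same order and 0 rose, and the summed level ran between 507 and 2136 RPKM within WT mock alone. Summed shoot epidermis markers were 1487 to 1733 RPKM in *dxo1*/*cDXO1*, 1098 to 1213 RPKM in *rnmt1-3*, 1268 to 1309 RPKM in *dxo1*, 994 to 1159 RPKM in *dxo1*/*NTE* and 577 to 852 RPKM in WT. Its 5 genes moved apart, since *LTP1* and *FDH* rose in each capping mutant, *TMM* fell in *dxo1*/*cDXO1* and *rnmt1-3*, *ATML1* and *PDF1* were not called, and none was called in *dxo1*/*NTE*. Summed root markers were 2041 to 2169 RPKM in *dxo1*, below the 2193 to 2495 RPKM of WT, while *dxo1*/*cDXO1* with 2094 to 2287 RPKM and *rnmt1-3* with 2180 to 2572 RPKM overlapped WT. The part of these in the photosystem results was not tested.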

How the data were processed

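The authors sequenced poly(A) RNA and deposited raw counts per gene, with HISAT2 2.2.1, Subread 2.0.8 and FastQC 0.11.8 named in the submitters' processing notes. The strand setting of the counting and the annotation release are not given in the sources used here. The deposited table also holds a gene length, used for RPKM. Groups follow the sample labels, and the study calls the 3 replicates of a group biological, without saying what was separate, so p-values measure the spread between these libraries.

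Counts were filtered (filterByExpr, minimum count 10) and tested with the quasi-likelihood test of edgeR 4.0.16 (R 4.3.3, TMM scaling) on the 6 libraries of each comparison, or the 12 of each difference of ABA responses. A gene was called at a Benjamini-Hochberg adjusted p under 0.05 over all tested genes, at any fold. Standard errors were computed as the log2 fold change over the square root of F. The scripts were tested on simulated data. DESeq2 1.42.0, other scaling, no filter, a fit of all 30 libraries, a replicate block and leaving out each library were the alternatives. A further one was an unadjusted p under 0.05 with an absolute log2 fold change over 1.

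Named members were, per role group, those with the highest level and the largest changes in 3 kinds of comparison. The members and lists were chosen with earlier results of these data known. Same-numbered libraries deviated together in all 3 pairs (correlation over 0.1) for *dxo1*/*NTE* against WT under mock (0.109 to 0.121) and *dxo1*/*cDXO1* against *dxo1* under mock (0.218 to 0.359). The labels do not say what the numbers stand for. Promoters and positions were read from TAIR10.1.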

Additional observations from a re-analysis of the deposited data

How the results depend on the processing

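Of 1190 alternative results for 97 called pairs of a named member and a comparison, 1027 kept the call, 163 lost it and 0 took the opposite direction. Counts of called members moved more. Shares of all tested genes are given for the main fits at adjusted p only. Counts from other fits or at unadjusted p have none beside them. Leaving out 1 library gave 9 to 33 for *dxo1*, 8 to 24 for *dxo1*/*cDXO1*, 6 to 23 for *rnmt1-3* and 0 to 13 for *dxo1*/*NTE* against WT under mock. After ABA the ranges were 13 to 30, 27 to 40, 21 to 36 and 5 to 32 in the same order. For ABA against mock they were 0 to 10 in WT, 3 to 15 in *dxo1*, 0 to 24 in *dxo1*/*cDXO1*, 0 to 4 in *rnmt1-3* and 7 to 29 in *dxo1*/*NTE*. Against *dxo1* they were 19 to 27 under mock and 16 to 30 after ABA for *dxo1*/*NTE*, and 1 to 41 and 37 to 41 for *dxo1*/*cDXO1*. For the difference of ABA responses from WT they were 0 to 7 in *dxo1*, 0 to 3 in *dxo1*/*cDXO1*, 0 to 0 in *rnmt1-3* and 0 to 2 in *dxo1*/*NTE*.

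A different threshold was an unadjusted p under 0.05 with an absolute log2 fold change over 1. It called 4 members for *dxo1* against WT under mock. After ABA it called 11, 8, 8 and 8 for *dxo1*/*cDXO1*, *rnmt1-3*, *dxo1* and *dxo1*/*NTE*. For ABA against mock the count was 2 in *dxo1*/*NTE*, 0 in *dxo1*/*cDXO1* and 0 in *dxo1*, and against *dxo1* it was 2 and 0 under mock and 0 and 0 after ABA. A fit of all 30 libraries gave 22, 22 and 10 for *dxo1*/*cDXO1*, *rnmt1-3* and *dxo1*/*NTE* against WT under mock. It gave 18 for ABA against mock in WT, all lower, 6 in *dxo1*/*NTE*, 0 in *dxo1*/*cDXO1* and 0 in *dxo1*. Against *dxo1* it gave 13 for *dxo1*/*NTE* and 2 for *dxo1*/*cDXO1* under mock, and 11 and 2 after ABA, and for the difference of responses 2 in *dxo1* and 12 in *dxo1*/*NTE*. Without a filter the counts were 2 for *dxo1*/*NTE* against WT under mock, 15, 2 and 1 for ABA in *dxo1*, *dxo1*/*cDXO1* and *rnmt1-3*, and 38 for *dxo1*/*cDXO1* against *dxo1* under mock. DESeq2 gave 8 for *dxo1*/*NTE* against WT under mock, 3, 3 and 1 for ABA in WT, *dxo1*/*cDXO1* and *rnmt1-3*, and 1 for the difference of responses in *dxo1*/*NTE*. The size factors of DESeq2, and leaving out organelle genes, gave 1 for ABA in *rnmt1-3*. With the replicate block the counts were 31 for *dxo1*/*NTE* against WT after ABA, 2, 21, 10 and 1 for ABA in WT, *dxo1*, *dxo1*/*cDXO1* and *rnmt1-3*, and 40 for *dxo1*/*cDXO1* against *dxo1* under mock. The cause of these moves was not tested.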

Other observations

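Replicate 1 had the highest summed member level in 8 of 10 groups and replicate 3 in 0. For *LHCB2.1* and *LHCB2.3* replicate 1 was the highest in 10 of 10 groups, and for *LHCB2.2* in 9 of 10. The labels do not say what the replicate numbers stand for.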
